A study of Homo sapiens with 4 samples.

Results

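The intronic peaks of IGF2BP3 are described here, the stretches of RNA recovered with this protein whose highest point fell between exons. They were sought in the established cell line OE-19, grown from a tumour of the junction of esophagus and stomach, by RNA immunoprecipitation followed by sequencing (RIP-seq) with an anti-IGF2BP3 antibody. The labels name UV fixation of the cells, which the study's account of its RIP does not. The series held 2 IGF2BP3 RIP replicates and 2 input replicates of untreated OE-19 cells, a single tumour line, and the labels do not say whether the replicates came from separate cultures. Input values were not analysed here. Each RIP replicate had a peak list made by the authors' caller, MACS2, on hg38, and a peak counted as intronic when it was at most 1000 bp wide and its summit lay in the body of a GENCODE 44 gene but in no annotated exon of any gene. The rule kept 1399 of 44622 peaks in replicate 1 and 1222 of 42723 in replicate 2, which is 3.14% and 2.86% of the lists. Exonic summits numbered 41916 and 40460 at the same width limit, and intergenic summits 451 and 388.

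IGF2BP3 belongs to the IGF2BP family, named for the mRNA of insulin-like growth factor 2, whose members bind RNA through RNA recognition motifs and KH domains, act mostly in the cytoplasm and are known for stabilising mRNAs and for reading N6-methyladenosine (m6A). Introns are removed from precursor RNA in the nucleus, so that a mature mRNA holds none. Sequence between annotated exons can still reach a RIP library, through precursor RNA, retained introns, unannotated exons, or a transcribed copy of another gene that lies inside an intron. The peak lists carry no strand and no read counts, so these sources cannot be told apart from them.

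Windows of the summit with 50 nt on either side are shown first for summits that lay just outside an exon, the kind found at about 1 in 2 intronic peaks. They are written 5′ to 3′ on the strand of the host gene, with the bases of any annotated exon in capitals. MED14 (chrX:40729266-40729366, minus strand) and ASCC3 (chr6:100631167-100631267, minus strand) had such a summit in both replicates, and CDK12 (chr17:39471719-39471819, plus strand) and YTHDF1 (chr20:63196688-63196788, minus strand) in replicate 2.
MED14: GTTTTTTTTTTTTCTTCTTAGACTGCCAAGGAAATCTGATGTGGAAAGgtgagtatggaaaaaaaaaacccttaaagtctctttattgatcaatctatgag
ASCC3: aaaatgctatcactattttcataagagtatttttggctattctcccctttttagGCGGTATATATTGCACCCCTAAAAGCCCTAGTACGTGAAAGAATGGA
CDK12: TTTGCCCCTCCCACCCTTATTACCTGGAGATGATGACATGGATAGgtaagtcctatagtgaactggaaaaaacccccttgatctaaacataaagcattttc
YTHDF1: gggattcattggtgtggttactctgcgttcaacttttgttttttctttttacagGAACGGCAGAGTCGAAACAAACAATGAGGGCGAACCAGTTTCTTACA
In MED14 and CDK12 the summit lay 3 and 6 nt after the exon, in or next to the first bases of the intron, the gtgag or gtaag of a donor site, and in ASCC3 and YTHDF1 just before it, in the pyrimidine-rich stretch and ag of an acceptor site.

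Summits deep in introns are shown by 5 windows whose central 31 bases occur once in the genome, from the strongest peak pairs of both replicates and from the genes with many peaks. GGAC, the core of the m6A consensus, and CACA, a repeat of the CA-rich elements known for IGF2BP proteins, are in capitals where they occur on the host's strand. The windows lie in CYP2F1 (chr19:41121226-41121326, plus strand, intron 4 of 9), LINC02331 (chr14:53703030-53703130, minus strand, intron 5 of 5), RASEF (chr9:83048059-83048159, minus strand, intron 1 of 16), RGS3 (chr9:113546159-113546259, plus strand, intron 17 of 22) and BACE2 (chr21:41217711-41217811, plus strand, intron 1 of 8).
CYP2F1: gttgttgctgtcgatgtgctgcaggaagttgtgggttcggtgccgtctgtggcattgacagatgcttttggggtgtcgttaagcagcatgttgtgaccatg
LINC02331: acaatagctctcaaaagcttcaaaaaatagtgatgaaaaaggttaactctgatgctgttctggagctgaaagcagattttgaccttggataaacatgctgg
RASEF: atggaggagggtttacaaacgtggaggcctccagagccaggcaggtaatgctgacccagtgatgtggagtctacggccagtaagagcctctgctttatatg
RGS3: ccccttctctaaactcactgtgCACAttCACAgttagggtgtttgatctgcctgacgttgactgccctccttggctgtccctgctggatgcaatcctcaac
BACE2: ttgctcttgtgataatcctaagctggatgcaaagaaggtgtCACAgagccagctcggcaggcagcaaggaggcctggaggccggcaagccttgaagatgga
None of the 5 windows holds GGAC on the host's strand, and RGS3 and BACE2 hold CACA.

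A further kind of summit lay in copies of other genes' mRNAs. The window below, from an intron of LINC00623 under a replicate 1 peak (chr1:120985208-120985308, plus strand), matches the coding sequence of FAM91A1 throughout, without a mismatch. Lower case is the end of FAM91A1 exon 18 and capitals the start of exon 19, joined as in the spliced mRNA.
LINC00623: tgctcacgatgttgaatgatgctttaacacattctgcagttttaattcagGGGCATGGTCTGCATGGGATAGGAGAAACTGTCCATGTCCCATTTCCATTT
Other copies lay over noncoding ends of mRNAs, and only 30 bases at the summit are given for them, in the direction of the matched mRNA. They come from GLT8D2, matching PGAM1 (chr12:104031882-104031911, plus strand), ENSG00000258210, matching HMGA1 (chr12:110428824-110428853, minus strand), and MIGA1, matching AIDA (chr1:77810189-77810218, minus strand). Each matches its mRNA with 0 mismatches over these 30 bases.
GLT8D2: accagtgaggagaagcaacagagcctgtct
ENSG00000258210: ggggctggggcatggcaggctgggtgaccg
MIGA1: accagattgtttttctgaaaatgagcatat

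The first comparison set intronic against exonic peaks. The authors' caller gave each summit a fold enrichment, a ratio of its pileup in the RIP library over local background. Its median over intronic peaks was 2.64 in replicate 1 and 2.52 in replicate 2, against 2.93 and 2.92 over exonic peaks. The middle 50% of intronic peaks ran from 2.37 to 3.01 in replicate 1 and from 2.21 to 2.93 in replicate 2. On the log2 scale the median of intronic peaks was lower by a mean difference of -0.18 ± 0.04 (SD, n = 2). Both replicates were lower than both exonic values, but 2 replicates against 2 cannot go below p = 0.333 in an exact two-sided permutation test, and p was 0.333. Taken within each library, the difference was -0.15 in replicate 1 and -0.21 in replicate 2. Intergenic peaks had medians of 2.52 and 2.36, below the intronic value of the same replicate.

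Few intronic peaks passed the caller's correction for many tests. At the limit of q at 0.05 or lower, the lists kept 31 of 1399 intronic peaks in replicate 1 (2.22%) and 16 of 1222 in replicate 2 (1.31%). Among all peaks of the same width limit on placed chromosomes the shares were 9.41% and 7.28%, so that the intronic shares were below the background of the lists in both replicates. A q of 1 was assigned to 75.7% and 84.0% of intronic peaks, against 61.5% and 66.5% of exonic ones. The highest intronic folds were 8.50 in replicate 1 and 10.0 in replicate 2, and the highest exonic folds 11.7 and 10.2. Each intronic maximum was a single peak. Among intronic peaks within that q limit, the next folds were 5.74 in replicate 1 and 5.62 in replicate 2.

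Overlap between the replicates was lower for intronic peaks as well. At least 1 bp of a replicate 2 peak was overlapped by 45.8% of the replicate 1 intronic peaks, and 51.1% of those of replicate 2 overlapped a replicate 1 peak. The shares over all peaks were 59.4% and 63.6%. The mean of the intronic shares, 48.4% ± 3.71 (SD, n = 2), was below the exonic mean of 62.1% (exact permutation p = 0.333, two-sided), and only 23% ± 0.794 (SD, n = 2) of intronic peaks had a summit of the other replicate within 50 nt. Overlap was counted against all peaks of the other list, of any width. Pairs were narrower: overlapping peaks that the rule kept as intronic in both lists numbered 347 pairs. Across these pairs log2 fold enrichment had a Pearson's r of 0.453 and a Spearman's rho of 0.398, a description over pairs that are not independent replicates.

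The distance to the nearest exon split the intronic peaks into 2 populations. Summits within 50 nt of an exon numbered 719 of 1399 (51.4%) in replicate 1 and 584 of 1222 (47.8%) in replicate 2, while the bases within 50 nt of an exon are 1.79% of all intron bases. Nearly all of these lay within 20 nt: 697 of 719 in replicate 1 and 562 of 584 in replicate 2. Summits fell from 528 at 1 to 10 nt to 169 at 11 to 20 nt and 5 at 21 to 30 nt in replicate 1, and from 452 to 110 and 5 in replicate 2. On the exon side, summits were most frequent 31 to 40 nt inside the edge, with 5709 and 5668 summits, and 1434 and 1485 lay in the last 10 nt before it. An edge here is a border of exon and intron, so exon ends beside intergenic sequence did not count.

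**Figure D1:**
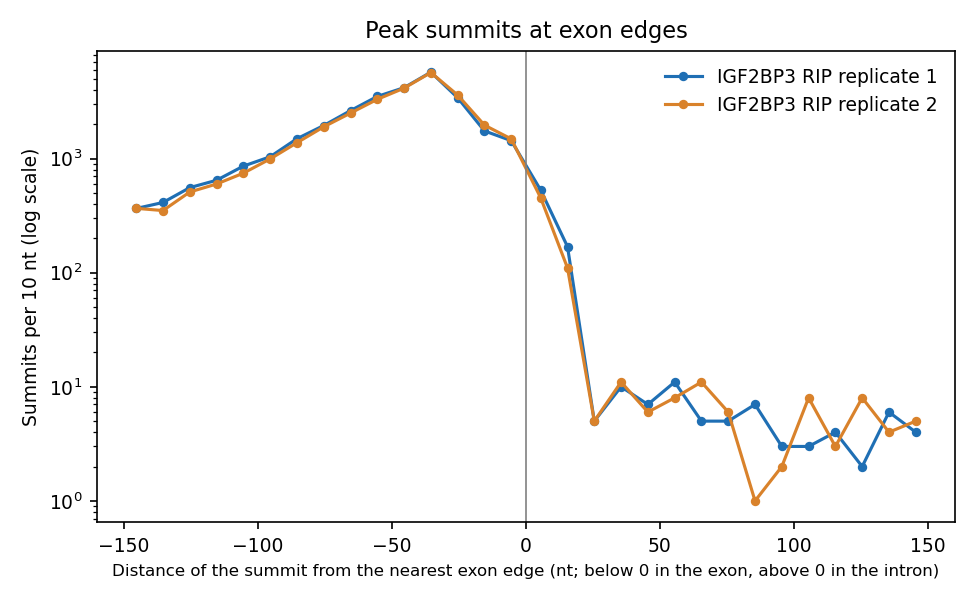
Peak summits per 10 nt (log scale) against their distance from the nearest exon edge that borders an intron (nt, below 0 inside the exon and above 0 in the intron). There is 1 line per IGF2BP3 RIP replicate. Both lines peak at 31 to 40 nt inside the exon, with 5709 and 5668 summits, and drop to 5 summits at 21 to 30 nt into the intron.

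Density per base followed the same course. Within 50 nt of an exon there were 24.8 summits per Mb in replicate 1 and 20.1 in replicate 2. From 51 to 100 nt there were 1.16 and 1.05 per Mb, and beyond 20000 nt 0.102 and 0.0680. Exons held 268 and 258 summits per Mb and intergenic sequence 0.389 and 0.334, and all intron bases over 50 nt from an exon held 0.427 and 0.401. Over 5000 and up to 20000 nt from an exon the density was 0.282 and 0.228, so that the bands beyond 5000 nt lay below the intergenic density of the same replicate. No input density was set beside these values.

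**Figure D2:**
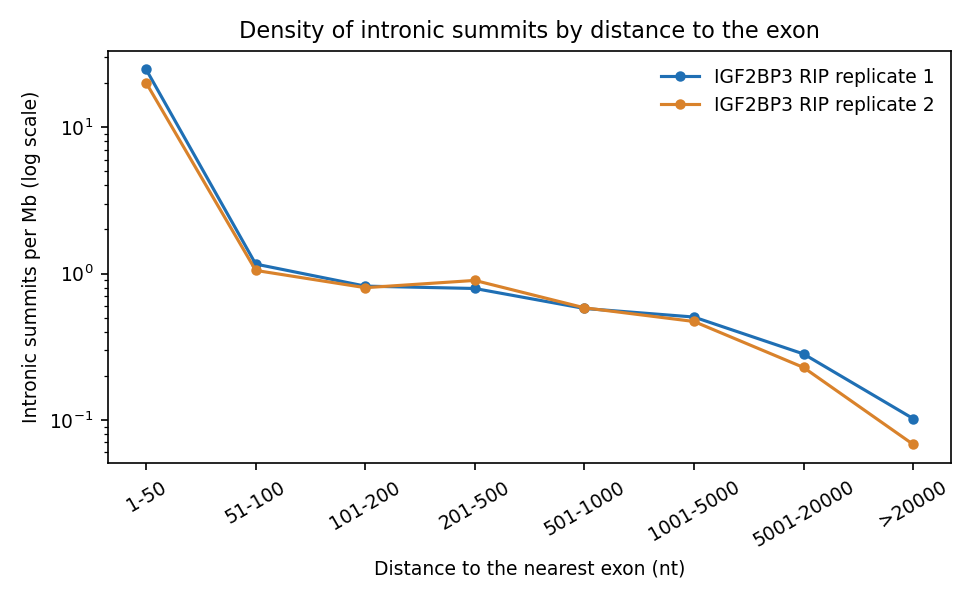
Intronic summits per Mb (log scale) in 8 bands of distance to the nearest exon (nt), with 1 line per IGF2BP3 RIP replicate. The first band, within 50 nt, stands at 24.8 and 20.1 per Mb, and the last, beyond 20000 nt, at 0.102 and 0.0680.

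Peaks of the edge population mostly reached into exons. Of the 719 and 584 peaks, 704 (97.9%) and 569 (97.4%) also covered exon bases, so that for them the word intronic holds for the summit alone. Their median width was 92 and 90 bp, against 147 and 137 bp for peaks whose summit lay over 50 nt from an exon. In replicate 1, 360 summits lay after the end of an exon and 359 before its start, and in replicate 2 310 and 274. The intron began with GT or GC at 97.5% and 96.5% of the exon ends, and ended with AG at 91.6% and 90.9% of the exon starts. The other replicate had an overlapping peak for 362 and 297 of them, and in 292 (80.7%) and 226 (76.1%) of these cases the peak with the longest overlap had its summit inside an exon. In those pairs the intronic peak had a median fold of 2.82 in replicate 1 and 2.77 in replicate 2, and its exonic partner 3.0 and 3.09. Hosts were protein-coding for 97.2% and 96.7%, and 94.2% and 93.2% of the peaks lay in a gene that held an exonic peak in the same replicate.

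MED14, a subunit of the Mediator complex, had the strongest of the edge pairs. Its summit lay 3 nt from an exon at the same base in both replicates, with folds of 4.88 and 4.05 and q of 6.22e-05 and 0.00424. ASCC3, a helicase that acts in alkylation repair and on stalled ribosomes, had folds of 4.32 and 3.83 at 4 and 3 nt from an exon, with q of 0.0663 and 0.284, above the limit of 0.05 in both. Other edge peaks below that limit were called intronic in 1 replicate only, and they are named here after their values were seen. UBN1, a subunit of a histone chaperone, had a fold of 5.64 at 1 nt from an exon in replicate 1 and no overlapping peak in replicate 2. ZCCHC14 had a fold of 5.0 at 1 nt in replicate 2, and the overlapping peak of replicate 1 had its summit in an exon, at 4.45. CREBBP, a histone acetyltransferase, had a fold of 4.77 at 1 nt in replicate 1 only.

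The other population, summits over 50 nt from an exon, held 680 peaks in replicate 1 and 638 in replicate 2. Only 39 and 44 of these touched an exon. Their median fold was 2.56 and 2.43, below that of the edge peaks (2.71 and 2.65), and an overlapping peak of the other replicate was found for 41.0% and 51.3%. Where there was one, it was intronic too for 270 of 279 and 304 of 327. The hosts were protein-coding for 74.1% and 71.6% and lncRNAs for 22.2% and 24.5%. A host with an exonic peak in the same replicate was found for 69.1% and 67.4% of these peaks. Of all protein-coding genes, each counted once, 32.6% and 31.6% held an exonic summit. The shares of peaks count a host once per peak and include lncRNA hosts, so the 2 kinds of share are not directly comparable.

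Within protein-coding hosts, these deeper summits were counted by intron, so that a host with many peaks weighs more. Of those in an intron of the canonical transcript, 27.0% of 330 in replicate 1 and 30.4% of 309 in replicate 2 lay in the first intron, which holds 23.4% of the intron bases, and 10.0% and 9.06% in the last, which holds 6.84%. First introns held 89 and 94 summits, of which RASEF gave 15 in each replicate and BACE2 9 and 8. Shares without these hosts were not computed. Density was 0.337 and 0.356 summits per Mb in first introns, 0.257 and 0.228 in middle ones, and 0.428 and 0.364 in last ones. The sole introns of genes with 1 intron held 10 and 11 summits, at 0.762 and 0.838 per Mb. These base shares and densities take whole canonical introns. They include bases within 50 nt of exons and exons of other transcripts, where no deeper summit could lie. Over the deeper summits of all hosts, protein-coding or not, density was lowest in the longest exon-free stretches. Those over 50000 nt held 0.0964 and 0.0940 summits per Mb, and those of over 500 and up to 2000 nt 0.707 and 0.969. The bases of these stretches, too, include those within 50 nt of an exon.

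Most host genes held a single intronic peak, and a few held many. In replicate 1, 736 of 949 hosts had 1 intronic peak and 33 had 5 or more, and in replicate 2 610 of 799 had 1 and 27 had 5 or more. Hosts found in both replicates numbered 360 of 1388. RASEF, a Rab-type GTPase with EF-hands, led with 15 peaks in each replicate. All 30 lay in intron 1, between summits at chr9:83032262 and chr9:83053455, in an exon-free stretch of 28.7 kb. Their median fold was 3.03 and 2.49, their highest 5.58 and 3.79, and 12 and 9 of the 15 were shared between replicates. RASEF exons held 3 and 6 peaks, with highest folds of 3.53 and 3.55. The highest intronic fold was above the highest exonic one in both replicates, and the 5.58 of replicate 1 lay at a summit whose central 31-mer occurs at 2136 places in the genome.

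VOPP1, a membrane protein of vesicles, came next with 12 and 10 peaks, all in 1 exon-free stretch of 34.4 kb on chromosome 7, with median folds of 3.03 and 2.93. Its exons held 1 and 2 peaks, the highest at 2.26 and 2.58, both below the intronic medians. BACE2, an aspartyl protease, held 9 and 8 peaks over 19.0 kb of intron 1 with median folds of 2.39 and 2.42. SPC25, a kinetochore subunit of the NDC80 complex, also held 9 and 8, within 5.14 kb, at medians of 2.45 and 2.58. In SPC25, 15 of the 17 summits had a central 31-mer that occurs at 10 or more places in the genome and 0 had a unique one, whereas 16 of 17 in BACE2 and 24 of 30 in RASEF were unique. SPC25 exons held 0 peaks in either replicate. None of the VOPP1 and SPC25 summits lay in an intron of the gene's canonical transcript.

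**Figure D3:**
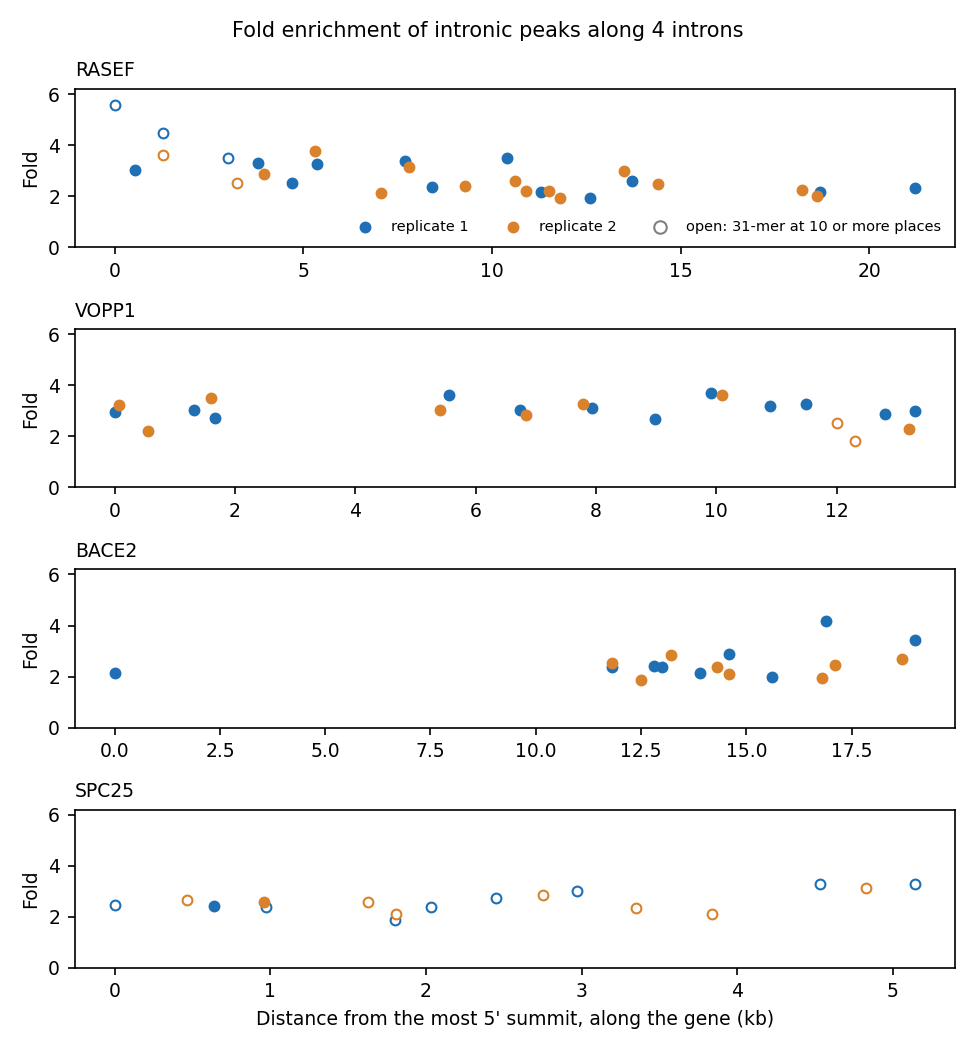
Fold enrichment of every intronic peak of RASEF, VOPP1, BACE2 and SPC25 against the distance (kb) of its summit from the most 5′ intronic summit, along the direction of the gene. Colours mark the replicates and open circles summits whose central 31-mer occurs at 10 or more places in the genome, 15 of 17 in SPC25 and 5 of 30 in RASEF.

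The remaining 6 of the 10 hosts with the most intronic peaks were NECTIN3, CATSPERB, RGS3, KCNAB1, MAP4K3-DT and RNF32, with 4 to 7 peaks in replicate 1 and 7 to 10 in replicate 2. RGS3, a regulator of G protein signalling, had median folds of 3.76, the highest of the 10 in replicate 1, and 2.90, with 6 and 9 peaks in introns 15 and 17. Of these peaks, 5 and 7 were shared, and the highest reached 4.90 and 3.91. The replicate 1 peak at 4.90 overlapped a replicate 2 peak at 4.69 that is not among those kept by the rule. NECTIN3, a cell adhesion protein, had 7 and 9 peaks at medians of 2.75 and 2.23, of which 2 and 5 were shared. CATSPERB, an auxiliary subunit of the sperm calcium channel, had 5 and 10 intronic peaks and 12 and 10 exonic ones. KCNAB1, a potassium channel subunit, had 7 peaks in each replicate in introns 12 and 13, at 2.67 and 2.43, beside 1 exonic peak in each. MAP4K3-DT, the lncRNA among the 10, had 6 and 8 peaks at 2.74 and 2.58. RNF32, a RING finger protein, had 4 and 10 at 2.56 and 2.17. In NECTIN3 and CATSPERB, too, no summit lay in an intron of the canonical transcript.

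Runs of peaks were counted over both lists, as at least 6 summits over 50 nt from exons in 1 exon-free stretch, from both replicates, each within 3000 nt of the next. The definition was chosen after the RASEF peaks had been seen, and the runs are given as a description. There were 44 such runs in 41 hosts, spanning 1.23 to 14.4 kb, and they took 29.7% and 32.0% of the deeper summits. Overlap with the other replicate was found for 56.9% and 60.8% of peaks in runs and for 34.3% and 46.8% of the other deeper peaks, and the definition itself asks for peaks of both replicates. Median folds were 2.59 and 2.43 in runs and 2.56 and 2.40 outside. In 24 of the runs every summit had a unique 31-mer, and in 6, with SPC25 and ANKRD12 among them, at least 50% of the summits lay at a 31-mer with 10 or more places.

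The strongest intronic peaks kept by the rule in both replicates are described next, the 12 pairs with the highest mean fold, at most 1 per exon-free stretch. MAGI3, a scaffold protein of cell junctions, led with folds of 8.50 and 5.62 and q of 3.34e-10 and 6.32e-05. The peak lies in intron 1 of 20 at chr1:113509388-113509981 in replicate 1 and chr1:113509525-113509984 in replicate 2, 39944 and 39776 nt from the nearest exon.

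CYP2F1, a cytochrome P450 of the airway, followed with 4.65 and 5.36 (q of 0.0288 and 0.00882). Its summits lay in intron 4 of 9, at 182 and 52 nt from an exon, and neither window matched another gene's transcript. ENSG00000258210, an lncRNA, had 4.72 and 4.68 (q of 9.48e-04 and 0.0294) in a copy of HMGA1, which encodes a chromatin protein of the AT-hook kind. HMGA1 had 0 exonic peaks in either replicate. NPIPB3, of a gene family duplicated along chromosome 16, had 4.88 and 4.33 (q of 6.22e-05 and 0.00267), and its windows matched NPIPB12 and NPIPB5 at 100%. With MED14, these made the 5 pairs that had a q of at most 0.05 in both lists, and 18 of 347 pairs reached it in at least 1 list.

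The other pairs among the 12 had folds between 3.18 and 4.79 and a q above 0.05 in at least 1 replicate. NLK, a serine/threonine kinase of the Wnt pathway, had 3.88 and 4.18 at 196 and 149 nt from an exon. LINC02406 had 3.97 and 3.95 and LINC02331 4.72 and 3.18, the former 17570 and 17603 nt and the latter 14044 and 14053 nt from an exon, all at unique 31-mers. RASEF entered with 4.46 and 3.60, at a summit that fell on the same base in both replicates, 2488 nt from an exon, and whose central 31-mer occurs at 3109 places. ALG1L9P, a pseudogene, had 4.79 and 3.20, and ERVK13-1, an lncRNA of an endogenous retrovirus locus, 3.77 and 4.18 in a stretch that matches PDPK1, the kinase that phosphorylates AKT.

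**Figure D4:**
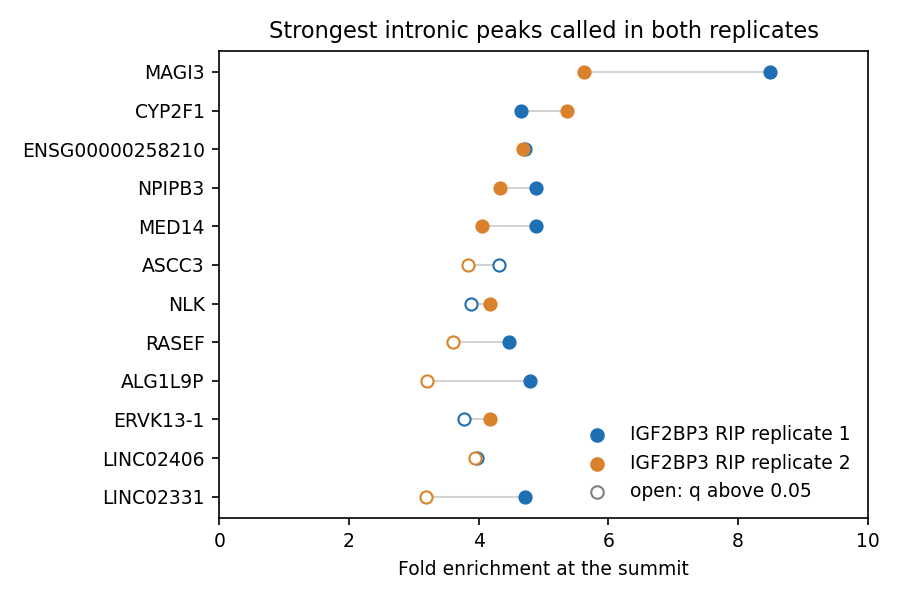
Fold enrichment at the summit (ratio, from 0) of the 12 strongest intronic peak pairs, with 1 point per IGF2BP3 RIP replicate, filled where q was at most 0.05. MAGI3 stands apart at 8.50 and 5.62, and the other 11 pairs lie between 3.18 and 5.36.

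To learn how often an intronic peak could lie in a copy, each window was aligned to all GENCODE 44 transcripts of other genes. A match of at least 90% identity over at least 80 nt was found for 26.8% of the 680 deeper summits in replicate 1 and 24.1% of the 638 in replicate 2. Edge summits matched in 3.34% and 2.23%, and the exonic subset, every 20th window, in 8.50% and 7.17%. A survey of 16203 windows, at every 100000th intron base, matched in 13.1%. The central 31-mer occurred at 2 or more places in the genome for 25.4% and 26.2% of deeper summits, 6.26% and 4.62% of edge summits, 5.47% and 5.29% of all exonic summits and 14.7% of the survey. It occurred at 10 or more places for 12.1% and 11.4% of deeper summits, 1.53% and 0.514% of edge summits, 0.883% and 0.776% of all exonic summits and 8.64% of the survey. Intergenic summits were close to the deeper intronic ones, with 28.6% and 28.1% matching a transcript. These are shares without a test, and how reads with several places in the genome were treated is not given in the sources used here.

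**Figure D5:**
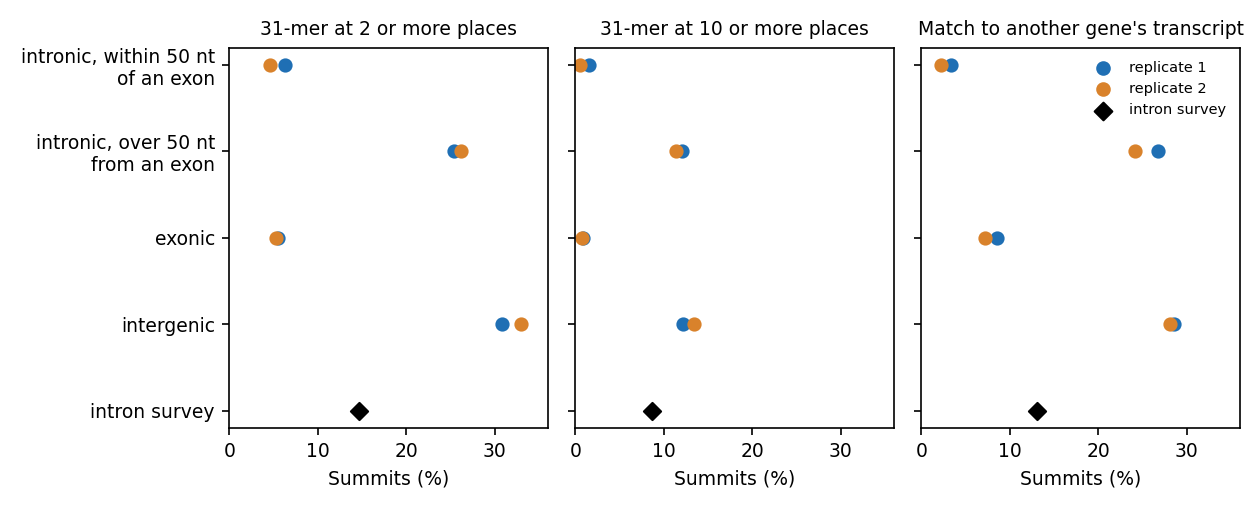
Share of summits (%) whose central 31-mer occurs at 2 or more places (left) or at 10 or more places in the genome (middle), and whose window matches another gene's transcript (right), by kind of peak and replicate, with the intron survey as diamonds. Deeper intronic summits (25.4% and 26.2%, 12.1% and 11.4%, 26.8% and 24.1%) lie above the survey in each panel and edge summits below it.

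Matches outside high-copy repeats were followed further. With 31-mers at 10 or more places left out, 106 deeper summits in replicate 1 and 91 in replicate 2 matched another gene. In 16 and 15 of these, the aligned stretch ran across at least 1 exon junction of the matched gene with the intron missing, as in a processed copy of an mRNA, and in 11 and 13 across at least 3. RefSeq (GRCh38.p14) annotates a pseudogene that is not among the GENCODE hosts at 38 (5.60%) and 34 (5.33%) of the deeper summits, Y-linked ones left out. The low-copy matches, junction counts and pseudogene shares were not taken in the intron survey. Whether they exceed those of intron sequence at large was not tested. Matched genes had an exonic peak of their own in the same replicate for 45.3% and 52.7% of the 106 and 91, and for 8 of 16 and 9 of 15 of the junction-spanning ones.

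Copies of AIDA, EIF4E, HMGA1 and TMX2 mRNAs were among those that carried intronic peaks in both replicates. The AIDA copy in intron 5 of MIGA1, a mitochondrial fusion protein, aligned over 2168 nt at 99.7% identity and across all 9 junctions, with folds of 3.98 and 3.17. AIDA, an axin-interacting protein, held 9 and 8 exonic peaks of up to 5.72 and 4.82, above its copy. An EIF4E copy in ENSG00000262039, of the cap-binding translation factor, aligned across all 6 junctions, with folds of 3.13 and 2.36 against up to 4.25 and 3.68 on EIF4E. TMX2, a thioredoxin-related membrane protein, had a copy in SLC25A51 across 6 of 7 junctions, with 2.52 and 3.37.

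The highest fold of all intronic peaks, 10.0 with a q of 1.18e-09, was that of GLT8D2 in replicate 2, and it had no partner in replicate 1. Its summit lies 354 nt from an exon in a copy of PGAM1, a glycolytic mutase, that aligned over 1738 of 1802 nt at 99.4% across all 3 junctions. PGAM1 had 0 exonic peaks in that replicate. Replicate 1 had a peak in a copy of YWHAZ, a 14-3-3 protein, in CASK with a fold of 3.48, named after its value was seen. The FAM91A1 copy in LINC00623, shown above, had 2.75, beside 10 exonic peaks of up to 5.11 on FAM91A1. Of genes whose copy spanned junctions, HMGA1, PGAM1, YWHAZ, PTMA, RPL41, HSPA8 and PDIA3, and TMX2 in replicate 1, had 0 exonic peaks in the replicate of the copy's peak.

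Peaks over 50 nt from exons, outside high-copy 31-mers and without a match numbered 492 in replicate 1 and 474 in replicate 2, or 35.2% and 38.8% of all intronic peaks. Their median fold was 2.56 and 2.37 and their highest 4.90 and 5.58. An overlapping peak was present in the other replicate for 40.9% and 50%, and 8 and 3 had a q of at most 0.05. Summits in matched low-copy windows numbered 106 and 91, of which 6 and 7 had such a q. Of all peaks with a q of at most 0.05, 13 of 31 and 6 of 16 were edge peaks, and 10 and 7 were deeper ones with a match.

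Base composition and short motifs were then counted in the same windows. The median GC content was 47.5% at deeper summits in both replicates, as at exonic summits (47.5% and 46.5%), and 39.6% in the intron survey. Edge windows had 38.6% and 39.6%. GGAC on either strand was in 46.2% and 45.0% of deeper windows, 40.5% and 41.1% of edge windows, 48.8% and 48.3% of exonic windows and 33.0% of survey windows. TGGAC, which contains GGAC, was in 16.8% and 15.2% of deeper windows, 19.9% and 19.6% of exonic ones and 11.6% of the survey. CACA was in 66.9% and 70.1% of deeper windows, 54.8% and 59.6% of edge windows, 61.6% and 61.2% of exonic windows and 60.2% of the survey. Deeper summits were thus closer to exonic windows than to the survey in GGAC and in GC content alike. For TGGAC they were closer to exonic windows in replicate 1 and to the survey in replicate 2. The likeness was not particular to intronic peaks. Intergenic windows had a median GC content of 47.5% in replicate 1 and 46.5% in replicate 2, and GGAC in 43.2% and 45.4%. The part of base composition in the motif shares was not tested.

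Hosts were also counted in gene lists chosen for this series. Of all protein-coding genes, 4.48% held an intronic summit in replicate 1, 3.75% in replicate 2 and 1.64% in both, so that in a list of under 30 genes a count of 0 to 2 hosts is near this background and is given as a description. Of the 9 cell cycle genes that the study names, 0 held one in replicate 1 and 1 in replicate 2, CCNE2, a cyclin of the G1-S transition, with a fold of 2.61 at 6 nt from an exon. Exonic peaks were on 3 of the 9 in each replicate. Of all protein-coding genes, 32.6% held an exonic summit in replicate 1 and 31.6% in replicate 2. These shares are also the background for the exonic counts of the lists that follow. Of 19 IGF2BP and m6A genes, 1 and 2 were hosts, none in both. RBM15, a subunit of the m6A writer complex, had 2.52 at 300 nt in replicate 1, and the m6A readers YTHDC1 and YTHDF1 had 2.43 at 15 nt and 3.29 at 4 nt in replicate 2. Exonic peaks were on 16 and 14 of these 19.

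Families known for retained or poison-exon introns were counted in the same way. None of the 14 SR protein genes and none of the 7 CLK kinases and other genes of regulated intron retention held an intronic summit in either replicate, and 2 and 3 of the former and 3 and 1 of the latter held an exonic one. Of 27 hnRNP genes, 1 held an intronic summit, HNRNPLL at 2.14 in replicate 1, 1914 nt from an exon. In the ERBB2 amplicon, 1 of 10 genes was a host, CDK12, a kinase of transcription elongation, with 3.28 at 6 nt from an exon in replicate 2, and the overlapping peak of replicate 1 had its summit in an exon at 3.94. Of 515 zinc finger genes, 9 and 13 were hosts and 4 in both (0.777%, beside 1.64% of all protein-coding genes), ZNF280D, ZNF337, ZNF670-ZNF695 and ZNF800. Their summits did not overlap between replicates in any of the 4.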

How the data were processed

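RIP-seq with anti-IGF2BP3 was run on OE-19 cells, and peak lists of 2 IGF2BP3 RIP replicates were used, grouped by the sample titles. According to the study's methods, Tophat2 placed the reads on hg38 and MACS2 called the peaks, whereas the submitters' processing notes name fastp, HISAT2 and MACS2. Which library served as control is not given in the sources used here. Each deposited peak has a score, a fold enrichment (a ratio), a −log10 p-value and a −log10 q-value, all made by the authors' caller for each sample. The smallest −log10 p was 2.00. Read depth is unknown, so no counting intervals are given, and p-values over 2 replicates cover only the spread between these samples. On unplaced scaffolds 13 and 12 peaks, and above 1000 bp 27 and 22 intronic ones, were left out.

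Summits were placed on GENCODE 44 genes and exons without strand, the shortest protein-coding host being kept where bodies overlapped (15.9% and 18.6% of intronic summits). Windows of the summit with 50 nt on either side were read from hg38, counted as 31-mers on both strands and aligned with BLAST 2.17.0 to all transcripts of genes other than the hosts. Matched stretches were extended by 2000 nt on each side, and a junction counted when at least 10 nt lay on either side. The reference carries no repeat masking, so the planned share of summits in repeat-masked sequence could not be computed and the 31-mer counts, chosen after the data were seen, stand in for it. Intronic and exonic values were compared by an exact two-sided permutation test over replicates.

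Named genes were the 10 hosts with the most intronic summits in both replicates, the 12 strongest overlapping pairs, every pair with q of at most 0.05 in both, the 5 best-matching pairs (14 pairs were tied at full identity and were ordered by fold), and listed genes. The members, lists and rules were chosen with earlier results of these data known. Alternatives changed the limit on p or q, the overlap, the distances, the match and the replicates used. Class, distance and overlap functions were tested on simulated annotation and recovered 2000 of 2000 classes, 789 of 789 distances and 500 of 500 overlaps. Scripts ran under Python 3.11.15 with scipy 1.17.1, pandas 2.3.3, numpy 2.4.6 and matplotlib 3.10.9. Some genes and sequences are not reported here.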

Additional observations from a re-analysis of the deposited data

How the results depend on the processing

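Of 50 alternative values for 6 results, 20 stayed within the spread between replicates (counts within 1.5 times), 29 moved further and 1 changed sign. Leaving out 1 of the 2 replicates always moves a share or log2 difference by less than that spread. The replicate block repeats the main value. These alternatives were thus bound to be counted among the 20 and say nothing about stability. The number of intronic peaks, 1399 and 1222, fell to a mean of 68.0 at a p of at most 1e-05, 23.5 at a q of at most 0.05, 632 for peaks shared by both replicates, 632 for whole peaks outside exons and 659 for summits over 50 nt from an exon. Leaving out a replicate gave 1222 and 1399. The share overlapping the other replicate (48.4%) fell to 28.5% at p of at most 1e-05, 39.5% at q of at most 0.05, 28.1% with 50% of both peaks and 23% with summits within 50 nt. The log2 difference from exonic peaks (-0.18) was -0.068 at q of at most 0.05, -0.23 for whole peaks outside exons, -0.23 for summits over 50 nt from an exon and 0.082 against intergenic peaks, with -0.21 to -0.15 without either replicate. The share of summits within 100 nt of an exon (51.8%) was 56.7% at p of at most 1e-05, 54.4% for shared peaks, 3.55% for whole peaks outside exons and 54.9% for 200 nt, and 50.1% to 53.6% without either replicate. The share matching another transcript (14.2%) was 23.7% at p of at most 1e-05, 38% at q of at most 0.05, 25.2% for whole peaks outside exons, 10.0% in protein-coding bodies, 10.4% at 95% identity, 18.3% over 50 nt and 25.5% for summits over 50 nt from an exon, and 13.7% to 14.7% without either replicate. The share in genes with an exonic peak (80.8%) was 65.2% at p of at most 1e-05, 52.3% at q of at most 0.05, 75.1% for shared peaks, 68.9% for whole peaks outside exons, 85.6% with an exonic peak in either replicate and 68.3% for summits over 50 nt from an exon, and 79.7% to 82.0% without either replicate. Except for the limits themselves, which leave fewer peaks, the causes were not tested.

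Intronic and exonic peaks come from the same libraries, and with the replicate number as a block the log2 difference was again -0.18, the mean of -0.15 and -0.21, with an exact paired permutation p of 0.5, the smallest that 2 pairs allow. Pairs of RIP and input samples were not used, since input values were not analysed here. The share of summits in repeat-masked sequence and its alternatives, the match share in windows with few masked bases, and the overlap share without a replicate were not run, the first since the reference carries no masking and the last since it needs both lists. The summits over 50 nt and the replicate block were added after seeing the data. Unpaired, the smallest exact p with 2 replicates is 0.333, and the values at q of at most 0.05 rest on 31 and 16 peaks.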
